A study of Rattus norvegicus with 17 samples.

Results

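The proteasome is the large protease that degrades proteins tagged with ubiquitin, and its subunits are encoded by the genes whose symbols begin with Psma to Psme. Of the 14506 genes that single-symbol probe sets named on these arrays, 41 met the rule used here. The rule took symbols beginning with Psma, Psmb, Psmc, Psmd, Psme or Psmf, left out the immunoproteasome genes Psmb8, Psmb9 and Psmb10, and represented each gene by its brightest probe set, judged on the mean of the 17 arrays. The 41 comprised 15 genes of the core particle, 17 of the regulatory particle, 3 assembly chaperones of the regulatory particle, 4 activator genes, and 2 that share only the letters of the prefix, Psmc3ip and Psme3ip1. In the core, 7 encode alpha and 8 beta subunits. In the regulatory particle, 6 encode ATPases and 3 non-ATPase subunits of the base, and 8 subunits of the lid. The rule itself uses no measured value beyond the mean level that picked 1 of several probe sets. It was set with earlier results of these data known.

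RNA came from primary cultures of ventricular myocytes of neonatal Sprague-Dawley rats and was read on 17 Affymetrix arrays, 1 per sample. The age of the cultures is given as 5 days. In 6 samples the cultures had received 10% uremic plasma taken before nocturnal hemodialysis (NHD, long overnight dialysis of people with kidney failure). In 6 other samples they had received 10% uremic plasma taken after it. The other groups were 3 samples with control plasma and 2 with phenylephrine (PE), an agonist of alpha-adrenergic receptors used to induce hypertrophy of myocytes in culture. The plasma share of the control and the medium of the phenylephrine cultures are not given in the labels, which also do not say whether replicates were separate cultures or plasma donors, so p-values measure the spread between these samples only.

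In the core particle, rings of alpha subunits form the gate and rings of beta subunits hold the proteolytic sites, of which Psmb5, Psmb6 and Psmb7 encode the active subunits of most tissues. The regulatory particle binds ubiquitin chains, removes them and threads the substrate into the core by means of its ATPase ring. In heart muscle the proteasome turns over sarcomere and signalling proteins, and its subunit genes are known to be driven together by the transcription factor NRF1, encoded by Nfe2l1.

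The values are log2 expression values, so that a difference of 1 is a doubling, and levels are compared only within a gene. Values over all probe sets ran from 1.28 to 14.29. Each difference below is given with its standard error from limma and with a p-value adjusted by the Benjamini-Hochberg method over all 29214 probe sets, and a gene was said to rise or fall where that p was under 0.05. Markers of the labelled cell type were high on the scale of the arrays: the mean of 8 cardiomyocyte markers lay between 12.31 and 12.97, and Tnnt2, cardiac troponin T, averaged 13.52. Since probe sets differ in brightness, this shows that the markers were detected and gives no share of cells. Acta2, listed with smooth muscle, averaged 13.86. Of 5 leukocyte markers, Ptprc, Itgam and Cd3e averaged 5.33, 5.04 and 4.93. These lay at percentiles 19.7, 15.5 and 14.1 of the mean levels of all probe sets. Csf1r and Cd68 averaged 6.73 and 7.27, at percentiles 45.9 and 54.1. The mean of 8 fibroblast markers ran from 7.02 to 10.23, so that cultures differed in these genes within and between groups. A fall in bulk RNA cannot tell fewer cells of a type from less RNA per cell. The replicates numbered 4 of the before NHD and after NHD groups lay closer to each other than any other pair of arrays, with an SD of the difference of 0.07 over the members and of 0.21 over all probe sets, and counts without them are given beside the main ones.

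A binding sequence of NRF1 and of the related NRF2 is the antioxidant response element, whose core is TGACNNNGC. The 250 bases before the start of the gene were available for 35 of the 41 members in RefSeq (build GRCr8), and TGACNNNGC or its reverse complement GCNNNGTCA occurred in 6 of them, or 17.1%. Among all 33469 such windows it occurred in 3373, or 10.1%. The letters CCAAT or ATTGG, the box bound by NF-Y, occurred in 18 of the 35 (51.4%) and in 34% of all windows. These counts describe letters only, and the 2 motifs were searched separately on both strands with overlaps allowed. The windows below belong to the 5 genes that held TGACNNNGC or its reverse complement and passed against control plasma in at least 1 comparison. Their values follow in the text. Capitals mark the match, and each window is written 5′ to 3′ on the strand of its gene. The marked stretch is the reverse complement GCNNNGTCA in Psme4 and in the first match of Psmd9.

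Psmb2 promoter window (GRCr8, chr5:144254808-144255057, plus strand): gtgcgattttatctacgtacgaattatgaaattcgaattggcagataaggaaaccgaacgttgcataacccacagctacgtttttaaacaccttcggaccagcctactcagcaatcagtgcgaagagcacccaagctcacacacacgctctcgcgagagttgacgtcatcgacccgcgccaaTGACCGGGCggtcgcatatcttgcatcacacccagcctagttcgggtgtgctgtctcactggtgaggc
Psmb5 promoter window (GRCr8, chr15:32047380-32047629, minus strand): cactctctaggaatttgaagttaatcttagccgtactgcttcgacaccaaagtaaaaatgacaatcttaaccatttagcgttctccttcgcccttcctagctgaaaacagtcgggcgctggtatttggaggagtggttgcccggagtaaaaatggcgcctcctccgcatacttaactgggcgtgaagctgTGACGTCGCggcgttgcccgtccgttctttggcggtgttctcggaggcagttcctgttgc
Psmb6 promoter window (GRCr8, chr10:55737638-55737887, plus strand): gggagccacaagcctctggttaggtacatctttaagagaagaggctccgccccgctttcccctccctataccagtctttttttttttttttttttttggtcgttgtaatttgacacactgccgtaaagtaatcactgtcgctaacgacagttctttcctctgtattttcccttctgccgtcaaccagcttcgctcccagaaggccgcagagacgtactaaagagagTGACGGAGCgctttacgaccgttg
Psmd9 promoter window (GRCr8, chr12:39018265-39018514, minus strand): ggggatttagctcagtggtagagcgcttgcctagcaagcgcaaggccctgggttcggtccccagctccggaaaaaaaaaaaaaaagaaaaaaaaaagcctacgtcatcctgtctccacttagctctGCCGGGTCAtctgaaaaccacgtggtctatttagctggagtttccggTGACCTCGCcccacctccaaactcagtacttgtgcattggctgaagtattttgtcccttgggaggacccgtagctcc
Psme4 promoter window (GRCr8, chr14:108706393-108706642, plus strand): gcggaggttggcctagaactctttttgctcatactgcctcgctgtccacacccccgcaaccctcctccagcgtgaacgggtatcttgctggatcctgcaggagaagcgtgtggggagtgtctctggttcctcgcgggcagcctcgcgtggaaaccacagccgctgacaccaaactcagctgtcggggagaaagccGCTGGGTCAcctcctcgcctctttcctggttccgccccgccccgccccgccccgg

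The window of Psmd9, which encodes an assembly chaperone of the ATPase ring, held 2 matches and each of the others 1. In the window of Psmd1, a base subunit gene that passed in no comparison, there was a match as well. As the results show, the 5 genes did not move alike: against control plasma, Psmb2 and Psme4 fell both after NHD and with phenylephrine. Psmb5 and Psmd9 passed with phenylephrine, where they fell, and Psmb6 passed after NHD, where it rose.

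Against control plasma, the 6 arrays with plasma from after NHD had lower values of 19 of 41 members (46.3%) and higher values of 4 (9.76%). By the same limma test 16.3% of the 14506 genes were lower and 16.7% higher, while over all probe sets these shares were 15.3 and 12.9 percent. Most members are bright, and among the 8554 genes whose mean was at or above that of the median probe set 19.7% were lower and 25.7% higher. The median difference of the members was -0.30 and that of all genes -0.07. The core had a median of -0.39 with 9 of 15 lower and 1 higher, and the regulatory particle one of -0.22 with 8 of 17 lower and 1 higher. Without the samples numbered 4 the counts were again 19 lower and 4 higher. The number of lower members dropped to 12 without control replicate 1 and to 12 without control replicate 2, and that of higher members to 1 without control replicate 1 or control replicate 3.

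With phenylephrine, 18 of 41 members (43.9%) fell against the same 3 control arrays and 1 rose. Over all probe sets 10.2 percent were lower and 8.54 percent higher, and over genes 11.9% and 11.7%. The median difference of the members was -0.43, against -0.06 for all genes, and 17.1% of the brighter genes were lower. Of the core 9 of 15 fell (median -0.58), and of the regulatory particle 6 of 17 (median -0.43). The test leans on 2 phenylephrine arrays: without replicate 1 there were 4 lower members and without replicate 2 there were 5. Without the samples numbered 4 the counts were 21 lower and 2 higher. With so few arrays, most members that did not pass also had phenylephrine values apart from all control values. The share of all genes with such a gap was not counted, so a gap alone sets no gene apart. Since both comparisons use the same control arrays, their values stand side by side here and are not evidence for each other.

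Of the 23 members that passed after NHD, 11 did so with any 1 of the 17 arrays left out: Psma2, Psma6, Psmb2, Psmb4, Psmb7, Psmc1, Psmc2, Psmc5, Psmd7 and Psmd5 among those that fell, and Psmd12. The other 12 (Psma3l, Psma4, Psma5, Psmb6, Psmb11, Psmc4, Psmd8, Psmd10, Psmd11, Psmd13, Psme1 and Psme4) missed the threshold without at least 1 control array, with adjusted p-values from 0.051 up to 0.188. Of the 19 that passed with phenylephrine, Psmb2, Psmb7, Psmc5 and Psmd9 did so throughout, and the other 15 missed it without 1 of the phenylephrine arrays, at adjusted p-values from 0.069 up to 0.2. The SD of the values over an array was 2.24 and 2.25 in control replicates 1 and 3 and 2.32 in control replicate 2, against 2.32 to 2.34 after NHD. With this SD as a term in the model, 9 members were lower and 0 higher after NHD against control plasma. Psmb6, Psmd12, Psmd10 and Psme1 then had differences of 0.38, 0.45, 0.19 and 0.43, none of which passed. The 9 that still fell were Psma2, Psma6, Psmb2, Psmb4, Psmb7, Psmc1, Psmc5, Psmd7 and Psmd5.

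**Figure D1:**
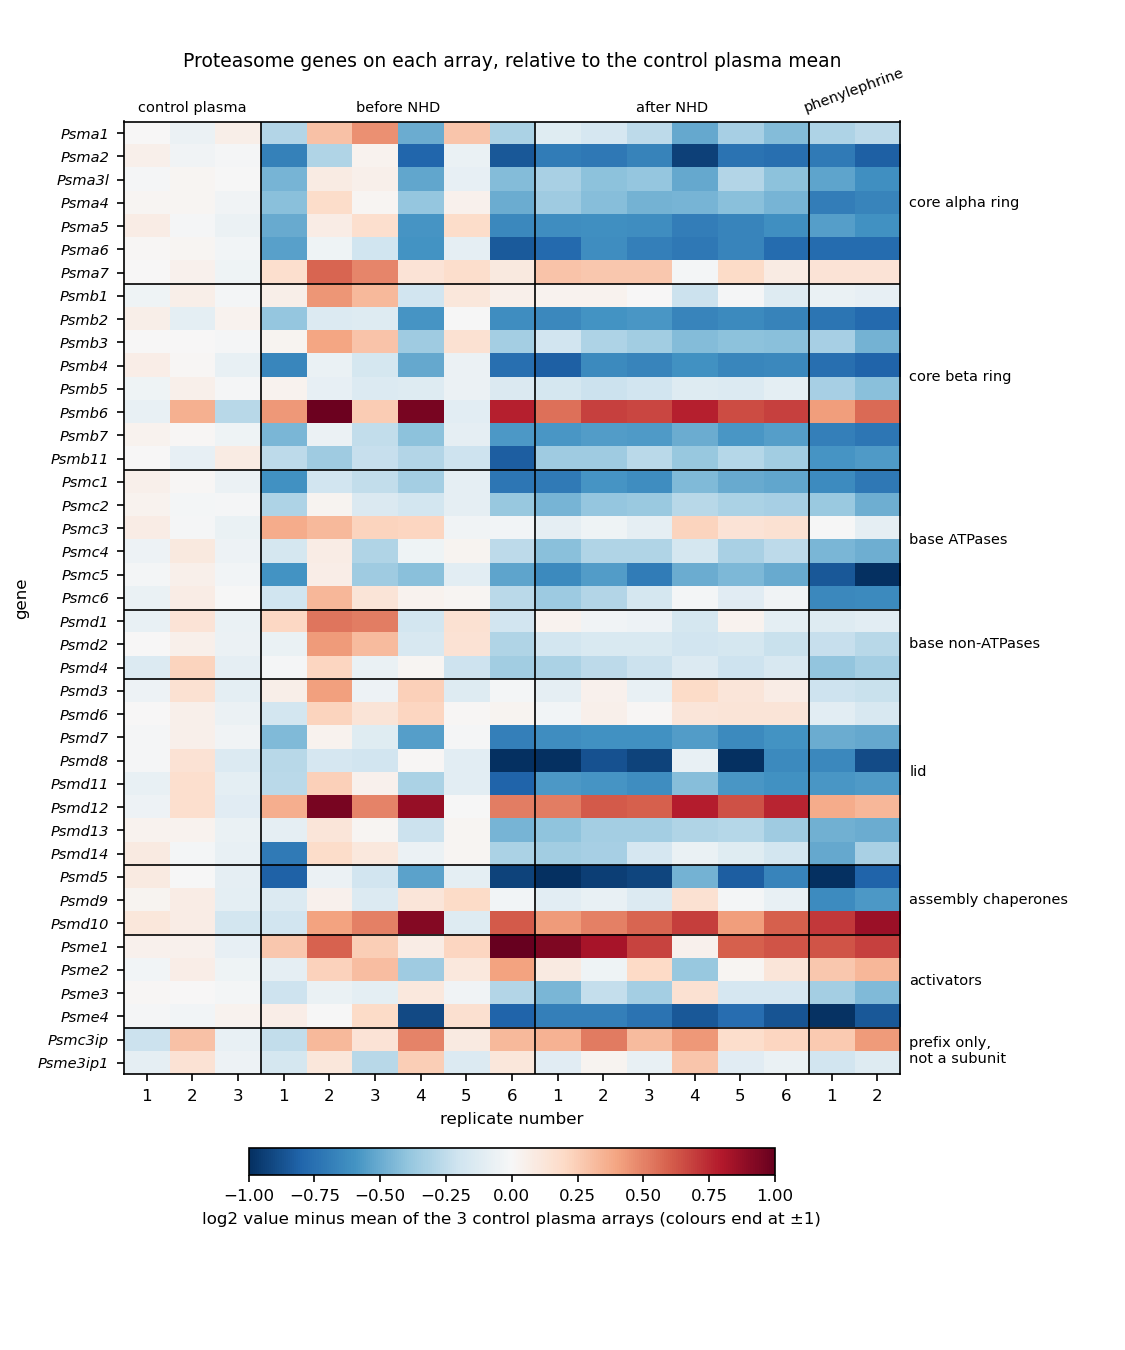
Log2 value of each of the 41 members (rows, grouped by role) on each of the 17 arrays (columns, by group), minus that member's mean over the 3 control arrays. Most core and regulatory rows are below 0 on the after NHD and phenylephrine arrays, and before NHD arrays differ among themselves. Psmb6, Psmd12, Psmd10 and Psme1 are among the rows that run the other way.

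With plasma from before NHD, 0 members passed the limma test against control plasma in either direction, while 2.05 percent of probe sets were lower and 2.88 percent higher. At an unadjusted p under 0.05 there were 13 members (31.7%), against 25.1% of all probe sets. Of the 41 differences 25 were below 0 (61%, against 56.8% of all genes), and the median was -0.10 against -0.05 for all genes. Over all 41 members these shares lie near the background, but the parts differed. In the core, 8 of 15 genes had an unadjusted p under 0.05, 11 were below 0 and the median was -0.22. For the regulatory particle these were 4 of 17, 10 and -0.10. After against before NHD likewise gave 0 members in limma, with 0.11 percent of probe sets lower and 0.288 percent higher. In that comparison 34 of 41 differences were below 0 (82.9%, against 51.2% of all genes), and the median was -0.18 against -0.01. An unadjusted p under 0.05 was found for 18 members (43.9%) and for 18.5% of all probe sets. Its largest differences were those of Psme4 (-0.55 ± 0.17, adjusted p = 0.108), Psmd8 (-0.47 ± 0.19, adjusted p = 0.184) and Psma5 (-0.42 ± 0.14, adjusted p = 0.125). Leaving out 1 array changed these zeros: after against before NHD gave 12 lower members without before NHD replicate 6 and 4 without before NHD replicate 4. Before NHD against control plasma gave 7 lower and 2 higher members without before NHD replicate 5 and 1 lower without before NHD replicate 3. With array weights in limma there were 17 lower members after against before NHD, and 4 lower and 6 higher before NHD against control plasma. Leaving out both samples numbered 4 gave 3 lower members after against before NHD and 0 before NHD against control plasma.

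The before NHD arrays differed among themselves more than the others. Relative to the control mean, the median over members was 0.12 and 0.04 in before NHD replicates 2 and 3 and -0.01 in replicate 5, but -0.20, -0.19 and -0.32 in replicates 1, 4 and 6. For core genes these medians were 0.08, 0.04 and -0.06 against -0.39, -0.41 and -0.50. So by these core medians 3 of the 6 arrays lay near the control level and 3 near the after NHD arrays. Gene by gene the split was less sharp. Over the members, the SD of the difference of before NHD replicate 2 was 0.252 from control replicate 2 and 0.248 from after NHD replicate 5. The core medians of the after NHD arrays ran from -0.50 to -0.35. For regulatory particle genes the split was less clear. There before NHD replicate 4 had -0.06, above the after NHD range of -0.36 to -0.17, and replicate 2 had 0.21. All 6 after NHD arrays were below the control mean over members, from -0.35 to -0.22, and so were the phenylephrine arrays at -0.46 and -0.49. The median over all genes stayed between -0.10 and 0.02 on every array. Replicate 2 was the highest of the before NHD arrays for 23 members and replicate 6 the lowest for 22. The SD of a member within its group had a median of 0.274 in the before NHD group, 0.0901 in the after NHD group, 0.068 in control plasma and 0.0382 in phenylephrine, and the corresponding medians over all genes were 0.258, 0.161, 0.129 and 0.089. The test pools these unequal spreads.

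**Figure D2:**
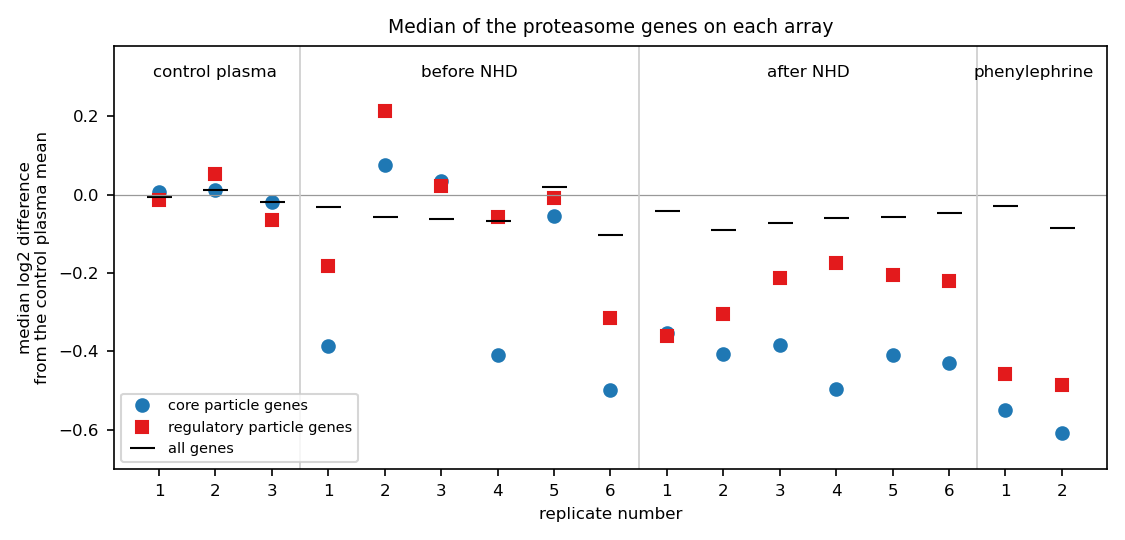
Median difference from the control mean (log2) on each array, separately for core genes, regulatory particle genes and all genes, with arrays ordered by group. The 6 after NHD arrays and both phenylephrine arrays lie below 0 for core and regulatory genes, and before NHD replicates 1, 4 and 6 lie apart from replicates 2, 3 and 5 for the core.

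Of the alpha subunits that gate the core, 5 of 7 fell with after NHD plasma (median -0.43) and 4 of 7 with phenylephrine (median -0.58). Psma2 had values of 10.50, 10.42 and 10.43 with control plasma. With after NHD plasma it ranged from 9.51 to 9.78 (median 9.72), and the phenylephrine arrays gave 9.74 and 9.63. None of the after NHD and phenylephrine arrays reached a control array, while before NHD values (9.60 to 10.48, median 9.96) spanned from one level to the other. Psma2 thus fell by 40.6% after NHD (-0.75 ± 0.17, adjusted p = 0.0039) and was lower with phenylephrine (-0.76 ± 0.22, adjusted p = 0.022). Psma6 fell by 0.70 ± 0.14 after NHD (adjusted p = 0.00217) and by 0.77 ± 0.18 with phenylephrine (adjusted p = 0.00934), although its dimmer second probe set gave 0.21 and 0.12 and did not pass. Psma4 and Psma3l also fell in both, and Psma5 fell after NHD (-0.64 ± 0.17) but missed the threshold with phenylephrine (-0.58 ± 0.22, adjusted p = 0.0767). Psma3 itself shares a probe set with Psma3l, which the rule leaves out and whose differences were -0.32 and -0.43. Psma1 (-0.30) and Psma7 (0.18) did not pass after NHD.

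The beta subunits carry the proteolytic sites. After NHD 4 of 8 fell and Psmb6 rose (median -0.34), and with phenylephrine 5 of 8 fell (median -0.49). Psmb7, the subunit of trypsin-like activity, had control values of 12.21, 12.19 and 12.14. After NHD arrays lay between 11.60 and 11.68 (median 11.61) and phenylephrine arrays at 11.49 and 11.45, all below every control array. The before NHD values ran from 11.60 to 12.12 with a median of 11.85. Psmb7 fell by 32% after NHD (-0.56 ± 0.10, adjusted p = 0.00135) and fell by 38.6% with phenylephrine (-0.70 ± 0.13, adjusted p = 0.00247).

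Psmb5, the subunit of chymotrypsin-like activity and the target of the drug bortezomib, had control values of 12.20, 12.29 and 12.23. Its phenylephrine values of 11.90 and 11.82 lay below those of all other arrays and it fell by 23% (-0.38 ± 0.09, adjusted p = 0.0106). After NHD it ranged from 12.03 to 12.14 (median 12.08), also below all control arrays, but the difference of -0.16 ± 0.07 did not pass (adjusted p = 0.114). Before NHD values were 12.10 to 12.28 (median 12.13), overlapping with both.

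Psmb6, the subunit of caspase-like activity, ran the other way. Its control values were 9.08, 9.51 and 8.88, its after NHD values 9.71 to 9.94 (median 9.83) and its phenylephrine values 9.58 and 9.72. Every array of both groups was above the control arrays, while before NHD values from 9.05 to 10.14 (median 9.76) overlapped with them. The rise after NHD was 59% (0.67 ± 0.20, adjusted p = 0.020), and the other probe set of Psmb6 gave 0.71 with an adjusted p of 0.00864. With phenylephrine the difference was 0.49 ± 0.26 (adjusted p = 0.200). Control replicate 2 was the highest control array for Psmb6, and without control replicate 3 the difference after NHD was 0.53 with an adjusted p of 0.12.

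Psmb4, a structural subunit, had control values of 10.95, 10.90 and 10.81, after NHD values of 10.07 to 10.28 (median 10.24) and phenylephrine values of 10.13 and 10.08. All of the latter were below the control arrays, and before NHD values ran from 10.14 to 10.83 (median 10.54). It fell by 37.1% after NHD (-0.67 ± 0.14, adjusted p = 0.00261) and fell by 41.8% with phenylephrine (-0.78 ± 0.18, adjusted p = 0.00755). Psmb2, whose promoter window is printed above, had control values of 13.15, 12.996 and 13.12, after NHD values of 12.42 to 12.51 and phenylephrine values of 12.36 and 12.32. It fell by 0.63 ± 0.12 (adjusted p = 0.0016) and by 0.75 ± 0.16 (adjusted p = 0.00423). Psmb11, the thymus-specific subunit, had a low mean level of 5.68, at percentile 25.9 of all probe sets. It is counted among the core genes that fell, by 0.33 ± 0.11 (adjusted p = 0.0396) and 0.58 ± 0.15 (adjusted p = 0.0128). The fall after NHD missed the threshold when any after NHD or control array was left out. Psmb1 and Psmb3 passed in neither comparison, with differences of -0.05 and -0.35 after NHD.

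**Figure D3:**
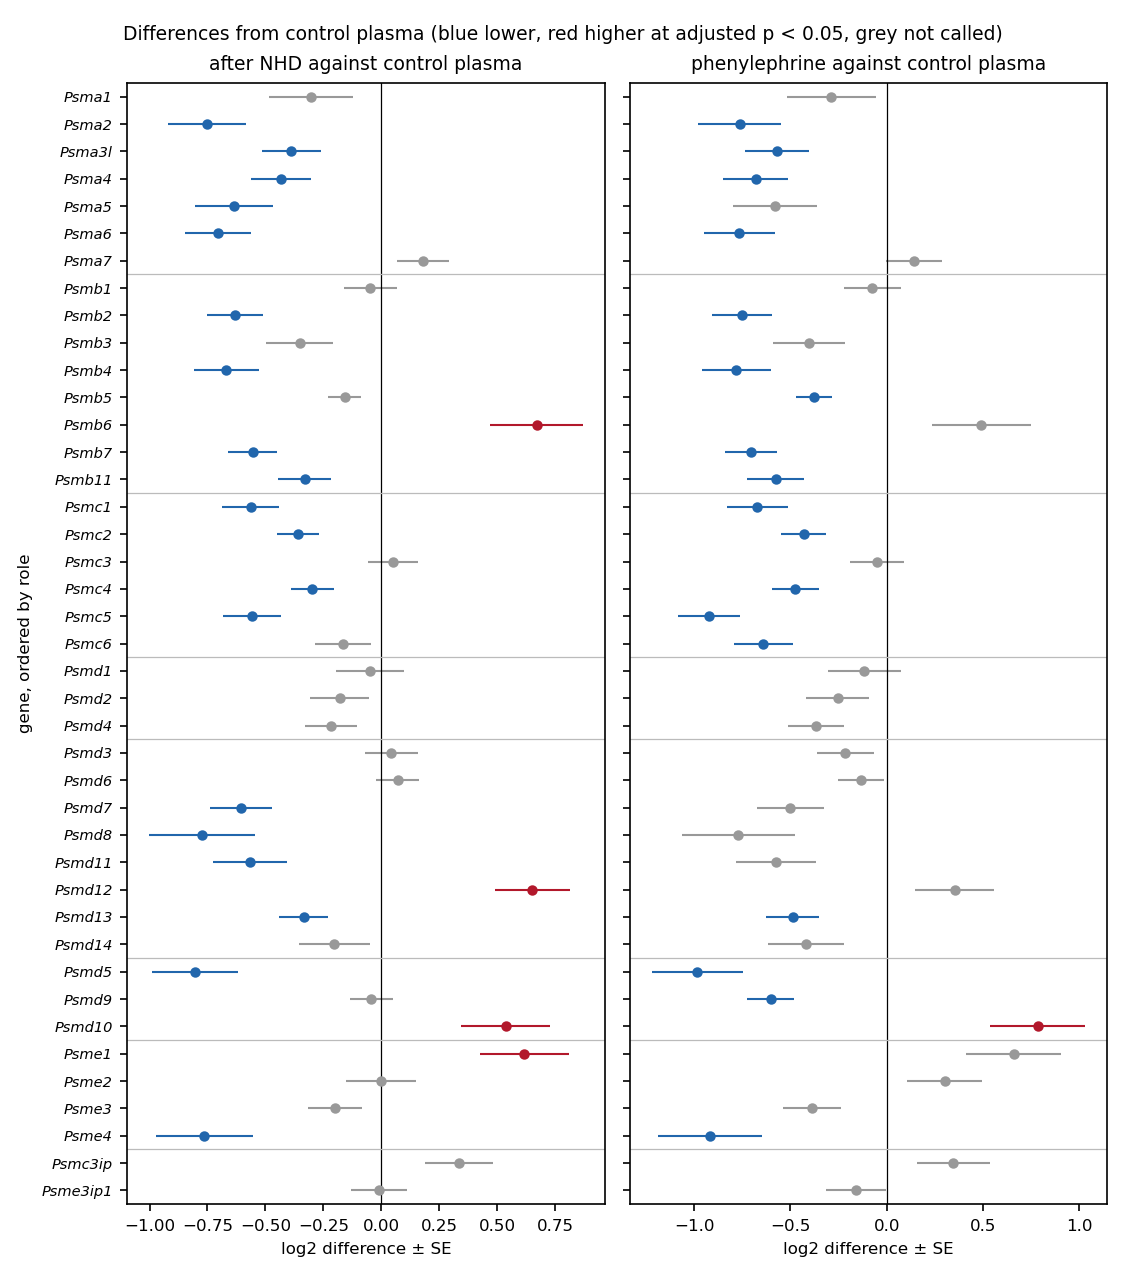
Differences from control plasma (log2, with standard errors from limma as bars) of the 41 members, ordered by role, for after NHD and for phenylephrine. Blue points passed as lower, red as higher and grey did not pass, and most points lie left of 0. To the right lie 10 members after NHD and 7 with phenylephrine, among them Psmb6, Psmd12, Psmd10 and Psme1.

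Of the 6 ATPases that form the ring of the regulatory particle, 4 fell after NHD (median -0.33) and 5 with phenylephrine (median -0.56). Psmc5 had control values of 8.71, 8.78 and 8.70, after NHD values of 8.03 to 8.28 (median 8.20) and phenylephrine values of 7.88 and 7.74. Every after NHD and phenylephrine array was below the control arrays, and the phenylephrine arrays were the lowest of all. Before NHD arrays ranged from 8.14 to 8.80 (median 8.34) and overlapped with control. Psmc5 fell by 0.56 ± 0.13 after NHD (adjusted p = 0.00407) and fell by 47.2% with phenylephrine (-0.92 ± 0.16, adjusted p = 0.00149).

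Psmc6 was the only ATPase gene that passed with phenylephrine but not after NHD. Its control values of 10.94, 11.07 and 10.999 lay within the before NHD range of 10.74 to 11.34 (median 11.03) and overlapped with the after NHD range of 10.64 to 10.99 (median 10.86). The phenylephrine arrays, at 10.36 and 10.37, were below all 15 others. It fell with phenylephrine against control plasma (-0.64 ± 0.16, adjusted p = 0.00979) and had -0.17 ± 0.12 after NHD (adjusted p = 0.326). The direct difference between phenylephrine and after NHD was -0.47 ± 0.14, which did not pass (adjusted p = 0.137). Psmc1, Psmc2 and Psmc4 fell in both comparisons, by 0.56, 0.36 and 0.30 after NHD and by 0.67, 0.43 and 0.47 with phenylephrine. Psmc3 had 0.05 and -0.05 and passed in neither.

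None of the 3 non-ATPase genes of the base passed in these comparisons. Psmd1, Psmd2 and Psmd4, of which Psmd4 encodes a ubiquitin receptor, had -0.05, -0.18 and -0.22 after NHD and -0.12, -0.25 and -0.37 with phenylephrine. The base has another ubiquitin receptor, Rpn13, whose gene Adrm1 lacks the prefix. Adrm1 fell by 0.81 ± 0.13 after NHD (adjusted p = 0.000684) and by 0.94 ± 0.17 with phenylephrine (adjusted p = 0.00195).

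Of the 8 lid genes, 4 fell and 1 rose after NHD (median -0.27), and only Psmd13 passed with phenylephrine (median -0.45). Psmd8 had control values of 11.08, 11.24 and 10.96 and after NHD values from 9.99 to 11.02 with a median of 10.19. After NHD replicate 4, at 11.02, made the groups overlap. Its fall was 0.77 ± 0.23 (adjusted p = 0.0187; 0.0663 without control replicate 2), and the phenylephrine values of 10.45 and 10.20 gave -0.77 ± 0.29, which did not pass (adjusted p = 0.0789). Before NHD values ran from 10.01 to 11.11 (median 10.91).

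Psmd12, a scaffold subunit of the lid, rose. Its control values were 10.32, 10.54 and 10.26, and its after NHD values of 10.89 to 11.16 (mean 11.03) lay above all of them. The rise was 57.1% (0.65 ± 0.16, adjusted p = 0.00687). With phenylephrine the values of 10.75 and 10.71 were also above the control arrays, but the difference of 0.35 ± 0.21 did not pass (adjusted p = 0.254). Before NHD values ran from 10.37 to 11.33 (median 10.88). Psmd7, Psmd11 and Psmd13 fell after NHD by 0.61, 0.57 and 0.34. Psmd14, the deubiquitinase of the lid, had -0.20 after NHD and -0.42 with phenylephrine, and neither difference passed. Psmd3 and Psmd6 had 0.04 and 0.07 after NHD.

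The assembly chaperones of the regulatory particle each showed another pattern. Psmd5 fell by 42.7% after NHD (-0.80 ± 0.18, adjusted p = 0.00467) and fell by 49.4% with phenylephrine (-0.98 ± 0.24, adjusted p = 0.00981). Its control values were 10.06, 9.96 and 9.88, its after NHD values 8.97 to 9.49 (median 9.10) and its phenylephrine values 8.81 and 9.17. No treated array of these groups reached a control array, and before NHD values ran from 9.04 to 9.91 (median 9.61).

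Psmd9 was low in the phenylephrine arrays alone, at 9.96 and 10.01. Its values were 10.61, 10.66 and 10.49 with control plasma, 10.45 to 10.74 (median 10.52) after NHD and 10.45 to 10.78 (median 10.60) before NHD, which overlap throughout. It fell with phenylephrine against control plasma (-0.60 ± 0.12, adjusted p = 0.00325), against before NHD (-0.61 ± 0.11, adjusted p = 0.00512) and against after NHD plasma (-0.56 ± 0.11, adjusted p = 0.0178). After NHD against control it had -0.04 ± 0.09. The last of the 3 phenylephrine differences, which compares the treatments directly, was -0.53 with an adjusted p of 0.41 when phenylephrine replicate 1 was left out.

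Psmd10, gankyrin, rose in both comparisons, by 0.54 ± 0.19 after NHD (adjusted p = 0.0458) and by 72.2% with phenylephrine (0.78 ± 0.25, adjusted p = 0.0357). Its control values were 7.42, 7.39 and 7.12, and the after NHD values of 7.73 to 7.998 (median 7.85) and phenylephrine values of 8.02 and 8.17 were all higher. Before NHD values from 7.12 to 8.23 (median 7.76) overlapped with control. The rise after NHD was 0.44 with an adjusted p of 0.19 without control replicate 3.

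The activators cap the core in place of the regulatory particle. Psme4 encodes PA200, a single-chain activator linked to acetylated histones. Its control values were 12.81, 12.80 and 12.86, its after NHD values 11.96 to 12.14 (median 12.07) and its phenylephrine values 11.83 and 11.97. Before NHD replicates 4 and 6 lay at 11.92 and 12.02 and the other 4 between 12.82 and 13.01, so that the before NHD group split between the level of control and that of after NHD. Psme4 fell by 41.1% after NHD (-0.76 ± 0.21, adjusted p = 0.0126) and fell by 47% with phenylephrine (-0.92 ± 0.27, adjusted p = 0.0256). Without control replicate 3 the adjusted p after NHD was 0.051, at a difference of -0.75 on the log2 scale.

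Psme1 and Psme2 encode the subunits of PA28, which interferon gamma induces. Psme1 had control values of 10.28, 10.28 and 10.16, and its after NHD values of 10.29 to 11.17 (median 10.89) were higher on every array, though the lowest by a narrow margin. It rose by 0.62 ± 0.19 (adjusted p = 0.0245; 0.0939 without control replicate 3), while phenylephrine values of 10.87 and 10.93 gave 0.66 ± 0.25 (adjusted p = 0.0739). Its dimmer probe set gave 0.33 after NHD and did not pass (adjusted p = 0.112). Before NHD values of Psme1 ran from 10.32 to 11.25 (median 10.50).

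Psme2, the partner subunit, had 11.20, 11.30 and 11.19 with control plasma, 10.85 to 11.43 (median 11.29) after NHD and 11.51 and 11.56 with phenylephrine. The phenylephrine values were above the control arrays, but 0.30 ± 0.19 did not pass (adjusted p = 0.303), and before NHD values ran from 10.87 to 11.64 (median 11.40). Psme3, the nuclear PA28 gamma, had 11.70, 11.70 and 11.68 with control plasma, 11.24 to 11.85 (median 11.49) after NHD, 11.40 to 11.80 (median 11.61) before NHD and 11.36 and 11.25 with phenylephrine. It passed in neither comparison (-0.20 and -0.39). Psmc3ip and Psme3ip1, which are not subunits, had 0.33 and -0.01 after NHD and did not pass.

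**Figure D4:**
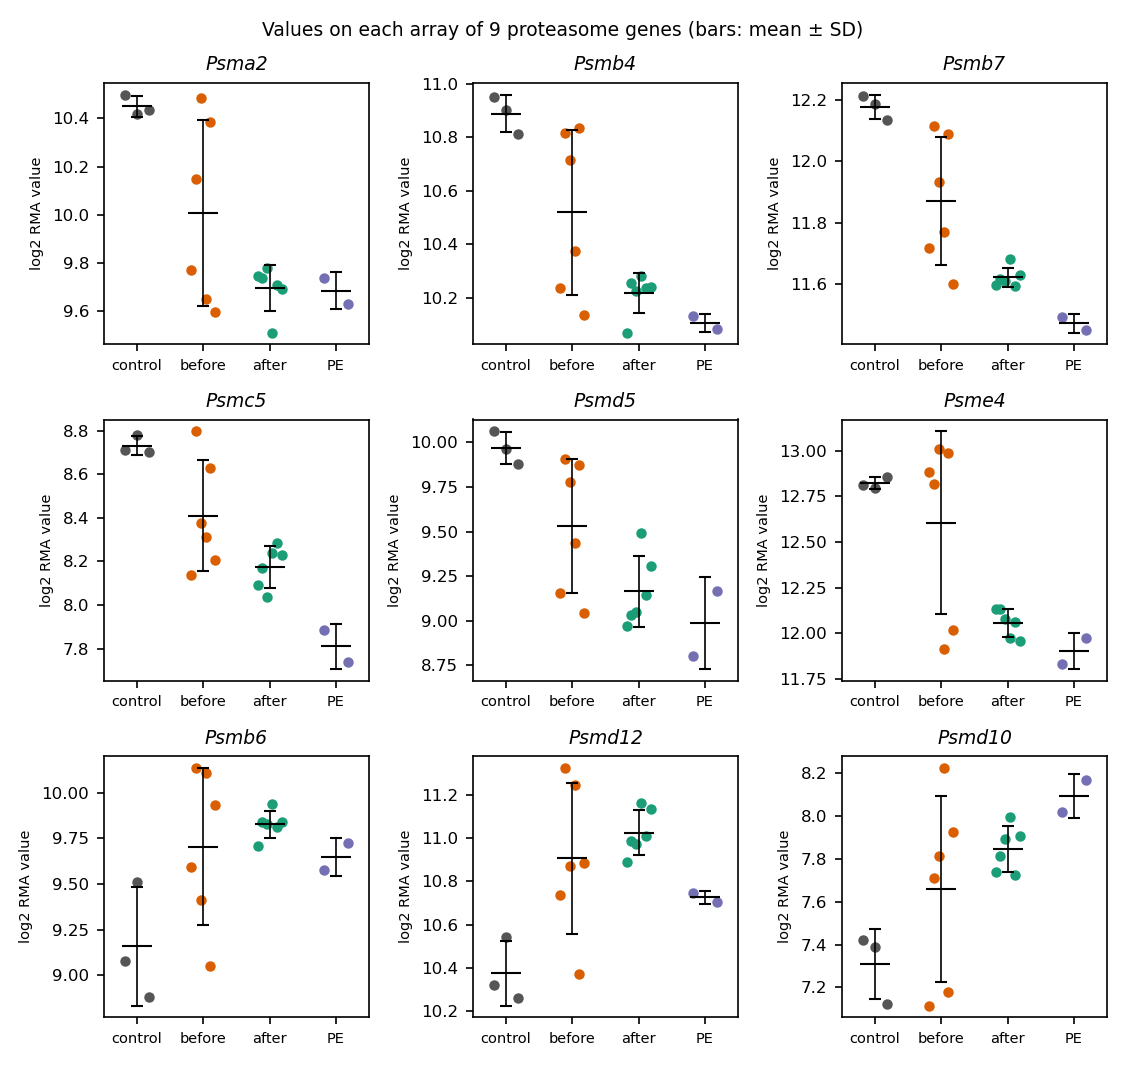
Log2 value on each array of 9 members (Psma2, Psmb4, Psmb7, Psmc5, Psmd5, Psme4, Psmb6, Psmd12 and Psmd10), by group, with the group mean and SD as bars. Control arrays lie above after NHD and phenylephrine arrays for the members that fell and below them for those that rose, and the before NHD arrays span both levels for most.

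Between phenylephrine and before NHD plasma, Psmc5 (-0.60 ± 0.14, adjusted p = 0.0256), Psmc6 (-0.65 ± 0.14, adjusted p = 0.0143) and Psmd9 passed and all 3 were lower, where 2.36 percent of probe sets were lower and 1.98 percent higher. Without phenylephrine replicate 1 or 2 none passed, and without before NHD replicate 6 there were 14, without replicate 4 there were 6. Between phenylephrine and after NHD plasma Psmd9 alone passed, where 0.496 percent of probe sets were lower and 0.483 percent higher. The median over members was -0.12 in that comparison and -0.30 against before NHD.

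The subunits that lack the prefix moved in the same comparisons. Uchl5, the deubiquitinase that binds Rpn13, had control values of 11.04, 10.94 and 11.01 and phenylephrine values of 9.46 and 9.62, a fall of 1.46 ± 0.30 (adjusted p = 0.00404). After NHD replicate 4 stood at 11.12 and the other 5 arrays at 10.03 to 10.38, which gave -0.66 ± 0.23 (adjusted p = 0.046, and up to 0.137 with 1 array left out). Sem1, a small lid protein, rose. Its control values were 7.45, 8.12 and 7.41, its after NHD values 9.24 to 9.53 and its phenylephrine values 9.61 and 9.55. The rises were 1.76 ± 0.31 (adjusted p = 0.000917) and 1.92 ± 0.40 (adjusted p = 0.00396). Of the immunoproteasome genes, Psmb10 fell by 0.84 ± 0.15 after NHD (adjusted p = 0.00111) and by 0.69 ± 0.20 with phenylephrine (adjusted p = 0.0227), while Psmb8 and Psmb9 did not pass (0.00 and 0.05 after NHD, 0.39 and 1.18 with phenylephrine).

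Of 4 measured assembly chaperone genes of the core, 2 rose in each comparison. Over all genes 16.7% were higher after NHD and 11.7% with phenylephrine. Psmg2 had 7.58, 7.94 and 7.63 with control plasma and rose by 1.49 ± 0.24 after NHD (adjusted p = 0.000684) and by 1.53 ± 0.32 with phenylephrine (adjusted p = 0.00388). It was also higher before NHD (1.32 ± 0.24, adjusted p = 0.0183), where before NHD replicate 5 stood at 7.96 and the others at 9.04 to 9.59. The difference before NHD missed the threshold without control replicate 1 or 3, with an adjusted p of up to 0.14. Psmg4 rose by 0.65 after NHD and by 0.83 with phenylephrine.

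Of 12 genes that regulate proteasome transcription, 4 fell and 4 rose after NHD, and 3 fell and 3 rose with phenylephrine. Among the brighter genes 19.7% were lower and 25.7% higher after NHD, and 17.1% lower and 17.1% higher with phenylephrine. Whether the list departs from these shares was not tested. Nfe2l1, which encodes NRF1, had control values of 11.57, 11.80 and 11.56, after NHD values of 10.16 to 10.68 and phenylephrine values of 10.53 and 10.64, with no overlap. It fell by 1.26 ± 0.18 after NHD (adjusted p = 0.000446) and by 1.06 ± 0.23 with phenylephrine (adjusted p = 0.00545). Nfe2l2, which encodes NRF2, fell before NHD (-0.58 ± 0.14, adjusted p = 0.034, and up to 0.162 with 1 array left out), after NHD (-0.92 ± 0.14, adjusted p = 0.000543) and with phenylephrine (-1.07 ± 0.18, adjusted p = 0.00134). Ddi2, the protease that activates NRF1, rose by 0.75 after NHD. Stat3 rose by 0.50 after NHD and by 0.56 with phenylephrine. Mafg, a small Maf partner of NRF1 and NRF2, fell by 0.53 after NHD and had -0.28 with phenylephrine, which did not pass. Among the subunits of NF-Y, Nfya and Nfyb rose in both comparisons (0.32 and 0.80 after NHD) and Nfyc fell in both (-0.29 and -0.54).

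**Figure D5:**
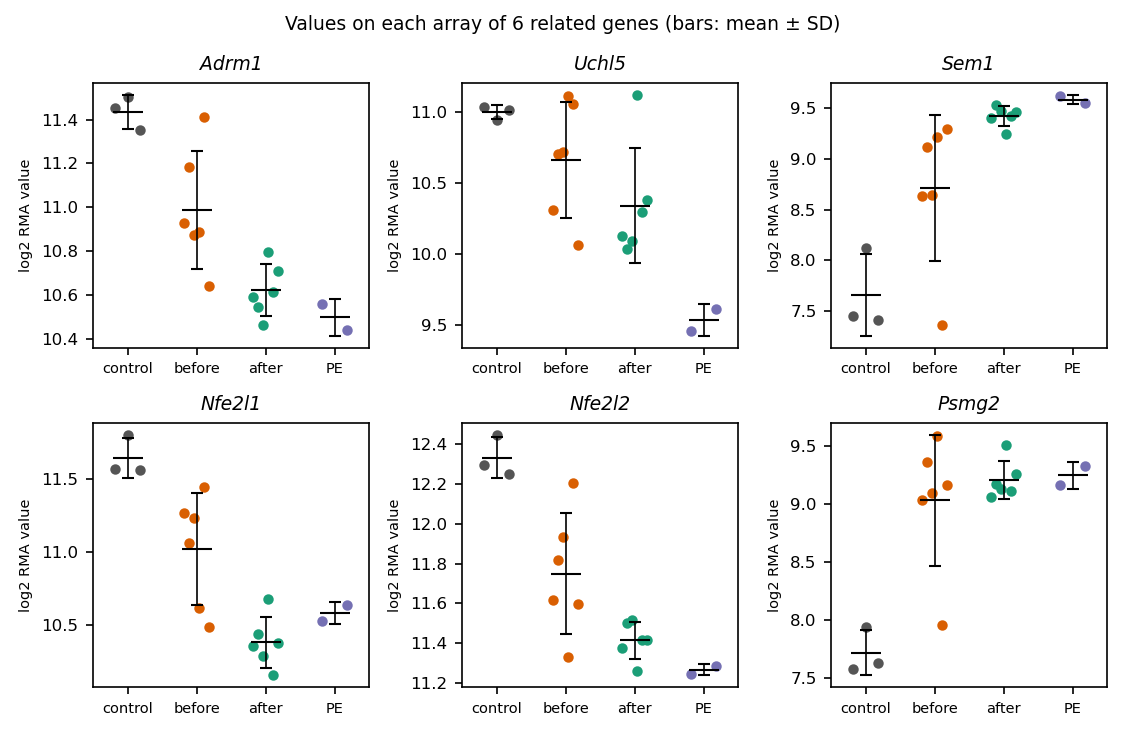
Log2 value on each array, by group, of 6 genes tied to the proteasome that are not members by prefix, with the group mean and SD as bars. Adrm1, Nfe2l1 and Nfe2l2 are lower and Sem1 and Psmg2 higher after NHD and with phenylephrine than with control plasma, and for Uchl5 after NHD replicate 4 stands with the control arrays.

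Genes that feed the proteasome were mixed. Over all genes 16.3% were lower and 16.7% higher after NHD, and 11.9% and 11.7% with phenylephrine. Of 7 measured ubiquitin ligases of striated muscle, 4 fell and 1 rose after NHD, and likewise with phenylephrine. Mdm2, the ligase of p53, fell by 1.81 after NHD and by 1.91 with phenylephrine, and Trim63, the muscle ligase MuRF1, by 0.64 and 0.77. Stub1, the ligase CHIP, fell by 0.28 and 0.35, and Trim54 fell by 0.74 after NHD but had -0.58 with phenylephrine, which did not pass. Fbxo30 fell by 1.11 with phenylephrine and had -0.48 after NHD, which did not pass. Trim55 rose by 0.42 and 0.50, and Fbxo32, atrogin-1, did not pass (-0.16 and 0.21). Of 10 shuttle receptor and segregase genes, Ubqln1 rose (1.56 and 1.33), Nploc4 fell (-0.40 and -0.49) and Vcp fell after NHD (-0.47). Of 5 factors associated with the regulatory particle, Zfand2a, Zfand5 and Txnl1 fell in both, Zfand2a by 1.41 and 1.19, Zfand5 by 0.49 and 0.64 and Txnl1 by 0.29 and 0.42. Of the ubiquitin-activating enzymes, Uba6 fell in both (-0.44 and -0.53) and Uba1 rose after NHD (0.22). Of 67 such passes of list and marker genes in these 2 comparisons, 23 held with any 1 array left out. They include Adrm1, Nfe2l2, Sem1, Psmg2 and Mdm2 in both and Nfe2l1, Psmb10, Ubqln1 and Zfand2a after NHD.

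Markers of the cell types moved as follows, where 16.3% of all genes were lower and 16.7% higher after NHD. With phenylephrine these shares were 11.9% and 11.7%. Cardiomyocyte markers averaged 12.31 to 12.33 with control plasma, 12.79 to 12.97 after NHD and 12.64 to 12.66 with phenylephrine, and 6 of 8 rose after NHD (Ryr2, Myh6, Tnni3, Myl2, Actn2 and Myh7) and 2 of 8 with phenylephrine (Ryr2 and Myh7). Fibroblast markers averaged 8.21 to 8.37 with control plasma, 7.23 to 9.66 after NHD and 9.96 to 10.23 with phenylephrine, and 0 of 8 passed in either comparison. Smooth muscle markers averaged 11.42 to 11.71, 10.56 to 11.34 and 10.93 to 11.08 in the same order, and 1 of 4 fell in each comparison, Cnn1 after NHD (-1.16) and Acta2 with phenylephrine (-0.40). Of 5 endothelial markers, Kdr rose in both and Cdh5 with phenylephrine, and 0 of 5 leukocyte markers passed. The part of these differences in the values of the proteasome genes was not tested.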

How the data were processed

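Biotin-labelled RNA of each sample was hybridised to its own Affymetrix array. RMA is the method named for the deposited values, per the submitters' processing notes, with no version given in the sources used here, and the log2 scale of the deposited values was read from their range. RMA makes the arrays' distributions alike, which removes any shift common to most genes. Where a title held more than 1 replicate number (2 samples before NHD), the final number counted. Of 29214 probe sets, 15310 had 1 symbol in the platform annotation, 323 several and 13581 none; 48 gave the 41 members.

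All 17 arrays were fitted together by group with limma 3.58.1 (R 4.3.3; degrees of freedom 13 residual, 3.32 prior) with two-sided tests of 6 comparisons, and the procedure was tested on simulated data. The members, roles and lists were chosen with earlier results of these data known, and Psma3l was given its role after the values were seen. Values per array are given for up to 4 largest increases and decreases per comparison, Psmb5 to Psmb7, Psme1 to Psme4 and members that passed in comparisons sharing no group; all other members are summarised, and list genes are named where they passed against control plasma. Alternatives were the brighter probe sets, 1 probe set per gene, fits of 2 groups alone, a further quantile normalization, a trended robust prior, weighted arrays, a block for the replicate number, each array's SD as a term, and leaving out the samples numbered 4 or each array in turn. The number of arrays limits the precision.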

Additional observations from a re-analysis of the deposited data

Results flagged for a closer look

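In 6 of 82 groups of 6 arrays checked (41 members before and after NHD), 1 array lay far from the other 5 by Dixon's test, which flags about 1 in 20 by chance. Before NHD replicate 6 was low for Psmb11 (5.17 against 5.64 to 5.79) and for Psmd8 (10.01 against 10.81 to 11.11). After NHD replicate 4 was low for Psma2 (9.51 against 9.69 to 9.78) and high for Psmd11 (10.26 against 10.06 to 10.11) and Psme3ip1 (11.07 against 10.68 to 10.82). After NHD replicate 1 was low for Psmb4 (10.07 against 10.23 to 10.28).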

How the results depend on the processing

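In the order after against before NHD, before NHD, after NHD and phenylephrine against control plasma, then phenylephrine against before and after NHD, leaving out each array in turn gave 0 to 12, 0 to 7, 12 to 20, 4 to 22, 0 to 14 and 0 to 1 lower members (0, 0, 19, 18, 3 and 1 with all arrays). Higher members numbered 0 to 2 before NHD, 1 to 4 after NHD and 0 to 2 with phenylephrine against control plasma (0, 4 and 1 with all arrays), and 0 throughout otherwise. Array weights gave 17 lower members after against before NHD, 4 lower and 6 higher before NHD against control, 6 higher with phenylephrine against control, and 23 and 5 lower for phenylephrine against before and after NHD. Adding the array SD gave 9 lower and 0 higher after NHD, 0 higher with phenylephrine, and 5 lower for phenylephrine against before NHD. With the replicate block there were 2 higher before NHD and 2 higher with phenylephrine against control, and 6 lower for phenylephrine against before NHD. Same-numbered before and after NHD samples had correlated deviations of -0.025 to 0.599, and 3 of the 6 before NHD samples correlated best with their own number. The labels do not say that the numbers pair samples, so they were not taken as pairs. Whether before and after NHD samples were paired was not tested, and the replicate block also tied control and phenylephrine arrays to the same numbers. The brighter probe sets gave 1 higher before NHD against control and 7 lower for phenylephrine against before NHD. Fitting only 2 groups gave 2 higher with phenylephrine against control and 0 lower against before NHD. Without the samples numbered 4 there were 3 lower after against before NHD, 2 higher with phenylephrine against control and 7 lower against before NHD. The causes were not tested. Of 46 member results past the threshold, 30 kept it with the array SD, 41 with the block and 43 or more in the other settings that keep all arrays, and none turned with the same probe set. Psma6 turned with its dimmer probe set, to 0.21 (adjusted p = 0.233) after NHD and 0.12 (adjusted p = 0.66) with phenylephrine against control. Dim members, such as Psmb11, lie where RMA compresses differences.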

Other observations

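Genes that interferon gamma induces, as it does Psme1, Psme2 and the immunoproteasome genes, were also read. Of 9 measured, 2 fell after NHD against control plasma, Tap1 (-1.48) and Cxcl10 (-1.12), and 0 rose. Over all genes 16.3% were lower and 16.7% higher there. With phenylephrine 2 rose, Cxcl10 (1.98) and Isg15 (1.28), and 0 fell, where 11.7% of all genes were higher and 11.9% lower. The second probe sets of Psme2 and Psme3 gave 0.08 and -0.29 after NHD and 0.48 and -0.44 with phenylephrine, and none of these passed. The second probe set of Psmc4 had -0.25 after NHD, which did not pass (limma, adjusted p = 0.0823), and -0.47 with phenylephrine, which did (adjusted p = 0.0227). That of Psmd8 had -0.41 and -0.55 and passed in neither.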
